A study of Homo sapiens with 12 samples.

Results

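The 49 genes described here are interferon-stimulated antiviral genes, picked by name as effectors of the interferon response from the 58735 genes of the deposited expression table. No measured value entered the rule, but the list was chosen with earlier results of these data known. Each name had 1 gene identifier, and all 49 were above 0 in at least 1 library. They comprise 14 genes of cap-binding and double-stranded RNA effectors, 4 of nucleotide and GTPase effectors, 9 of membrane and mitochondrial proteins, 6 of the ISG15 system, 4 of ADP-ribosylation, 5 of TRIM and nuclear body proteins and 7 others. RNA was sequenced from NCM460, an established human cell line described as intestinal epithelium, in 12 libraries of 4 groups with 3 libraries each. The groups were cells in medium alone, cells given TNF-α, cells given TNF-α and 5-OH-TMT (named Bufotenidine in the labels, a quaternary tryptamine), and cells given TNF-α in which the mitochondrial serine protease HTRA2 had been knocked down with siRNA. Every group except medium therefore shared TNF-α, whose dose and duration are not given in the sources used here. No group received the siRNA or 5-OH-TMT without TNF-α. The study describes its knockdown comparison as HTRA2 siRNA against a control siRNA, but the labels of the other groups name no control siRNA. The loss of HTRA2 and the transfection itself therefore cannot be told apart. Nor do the sources say which of the 3 designed siRNAs was used or whether the libraries of a group came from separate cultures, so the p-values below measure the spread between libraries, which may be technical.

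Interferons are secreted proteins that signal through receptors coupled to JAK kinases. Type I and type III interferons lead to a transcription factor complex with STAT2 and IRF9 that binds the interferon-stimulated response element (ISRE), whereas interferon-γ acts mainly at gamma-activated sites (GAS). The genes under such elements encode proteins that bind or degrade viral RNA, trap virions at membranes or modify other proteins. Intestinal epithelial cells respond in particular to type III interferons (interferon-λ), and TNF-α can add to the response through NF-κB and IRF1.

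Promoters of 250 bases before to 50 bases after the start site were taken from RefSeq (GRCh38.p14) and searched on both strands. A promoter was listed for 41 of the 49 genes, and none was listed for IFIT2, OAS2, OASL, MX2, IFITM2, LAMP3, USP18 and TRIM22. The ISRE was written as GAAANNGAAA, with N for any base, and it occurred in 29 of the 41 genes, or 70.7%, against 4.38% of the 27305 genes with a listed promoter and 3.57% of the 35116 promoters. The GAS, written as TTCNNNGAA, occurred in 11 of the 41 genes, against 9.38% of all genes, and 8 of the 55 ISRE matches in these promoters overlapped a GAS match. An NF-κB site, written as GGGNNTTTCC, occurred in 1 of the 41 genes (OAS3), against 2.33% of all genes. A form of the ISRE with 1 base between its repeats, GAAANGAAA, was added after the promoters and values had been seen, and it occurred in 17 of the 41 genes against 3.87% of all genes. With either form, 35 of the 41 genes had a match, or 85.4%, against 7.83% of all genes, and the 6 without one were ADAR, SAMD9L, UBE2L6, HERC6, SP100 and HELZ2. A match is a description of the letters and not a bound site.

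The windows of 30 bases around the ISRE match are shown because this element is the feature that these genes shared most often. They were chosen after the values had been seen, as those genes with a match among the ones that the naming rule, given with the processing, selects. The first match of the first listed promoter with one is given for each gene, in the direction in which the element reads GAAA, with all matches inside the window in capitals.
OAS3, chr12:112938321-112938350: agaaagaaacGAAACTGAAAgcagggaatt
PARP14, chr3:122680800-122680829: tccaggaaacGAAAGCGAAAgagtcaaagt
RSAD2, chr2:6877622-6877651: ttccacatgtGAAACTGAAAgttgaaacag
IFI27, chr14:94110618-94110647: cattttccagGAAACCGAAActgcagacat
ISG15, chr1:1013374-1013403: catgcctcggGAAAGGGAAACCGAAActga
MX1, chr21:41420559-41420588: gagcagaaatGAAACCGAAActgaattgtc
IFIT1, chr10:89392497-89392526: accgaaagggGAAAGTGAAActaaagctag
IFIT3, chr10:89327831-89327860: ttgggaggagGAAAATGAAAcctaacggct
IFI6, chr1:27672329-27672358: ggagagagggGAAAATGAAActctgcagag
IFITM1, chr11:313990-314019: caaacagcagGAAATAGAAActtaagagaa
IFITM3, chr11:320893-320922: caaatgccagGAAAAGGAAActgttgagaa
BST2, chr19:17405741-17405770: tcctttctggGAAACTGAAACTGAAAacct
ISG15 and BST2 each had 2 overlapping matches in the window. In 11 of the 12 windows the match lay before the start site, between positions -156 and -20, and in MX1 it lay at 12 to 21 bases after it. The element lay on the strand opposite to the gene in RSAD2, IFI27, IFIT1 and IFIT3.

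The 250 bases upstream of the start site are shown for RSAD2, OAS1 and IFI27, the genes with a listed promoter that changed most with the knockdown among those with a mean of at least 1 FPKM. FPKM, the unit of the deposited table, are fragments per kilobase of gene scaled to the depth of the library. Capitals mark both forms of the ISRE, read on the gene's strand, so that a match on the opposite strand appears as TTTC.
RSAD2, chr2:6877527-6877776, plus strand: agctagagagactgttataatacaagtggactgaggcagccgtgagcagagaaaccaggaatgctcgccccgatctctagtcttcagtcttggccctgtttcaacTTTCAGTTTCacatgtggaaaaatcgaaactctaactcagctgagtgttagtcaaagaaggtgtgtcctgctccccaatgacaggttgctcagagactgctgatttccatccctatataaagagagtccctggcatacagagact
OAS1, chr12:112906712-112906961, plus strand: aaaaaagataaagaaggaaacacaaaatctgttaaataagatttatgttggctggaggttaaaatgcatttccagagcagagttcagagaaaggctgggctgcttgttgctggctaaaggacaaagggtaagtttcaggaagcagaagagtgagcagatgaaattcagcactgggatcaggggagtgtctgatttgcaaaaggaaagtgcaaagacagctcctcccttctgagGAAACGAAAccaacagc
IFI27, chr14:94110486-94110735, plus strand: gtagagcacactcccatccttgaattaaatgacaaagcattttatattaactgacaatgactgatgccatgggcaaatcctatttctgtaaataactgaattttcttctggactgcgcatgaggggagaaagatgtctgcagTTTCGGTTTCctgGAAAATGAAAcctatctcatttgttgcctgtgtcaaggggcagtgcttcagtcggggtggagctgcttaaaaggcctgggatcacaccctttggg
OAS1 held only the form with a 1-base gap, which began at position -17. IFI27 held 2 ISRE matches on opposite strands beside each other. RSAD2 and IFI27 have 2 listed promoters each, and the one with an ISRE match is shown.

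The reads on genes ranged from 31008429 to 37624399 per library and had a median of 35649726. The targeted gene, HTRA2, stood at 14.0, 17.2 and 13.3 FPKM in medium, 15.4, 14.0 and 14.2 with TNF-α, 15.4, 15.5 and 14.8 with 5-OH-TMT, and 7.44, 7.18 and 7.22 in the knockdown, which was 0.502 times the TNF-α mean. All 6 TNF targets looked at (TNFAIP3, NFKBIA, CXCL8, ICAM1, BIRC3 and RELB) rose with TNF-α. The second knockdown library stood apart, with 2.95% of its reads on mitochondrial genes against at least 3.69% in all others. It had the lowest level of the 3 knockdown libraries for 27 of the 49 genes, and the same share over all genes was not counted. Of 11 markers of simple and colonic epithelium, KRT8, KRT18, EPCAM and CDH1 were abundant, KRT20, VIL1, CDX1 and CDX2 had at most 3 reads in every library, LGALS4 and MUC2 were below 0.2 FPKM in every library, and KRT19 stood at 1.91 to 4.35 FPKM, so most defining markers of colonic epithelium were absent or low. All 4 markers of stratified epithelium (KRT5, KRT6A, KRT14 and TP63) were expressed, at a summed 169.8 to 260.4 FPKM over the libraries.

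TNF-α alone raised 14 of these genes, OAS1 by the most at 2.02-fold, and neither ISG15 nor any IFIT or IFITM gene passed the test. The question of this comparison is what TNF-α did to the antiviral program on its own. At an adjusted p under 0.05 (limma on log2(FPKM + 0.1), two-sided, Benjamini-Hochberg over 18079 genes), 14 of the 49 genes were higher and 0 lower, against 3.22% and 0.885% of all genes tested. The middle of the 49 log2 fold changes was 0.34 (median), against -0.00 for all genes. By the rule that the study uses for differentially expressed genes, a fold of 2 or more and an unadjusted p no higher than 0.05, with the fold taken here on the log2(FPKM + 0.1) scale, 0 of the 49 were higher, against 1.76% of all genes. That 0 rests on the added 0.1 FPKM, since the plain ratio of mean FPKM was 2.02 for OAS1, 2.19 for MX2 and 8.63 for XAF1, each with an unadjusted limma p under 0.05.

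The oligoadenylate synthetases, which make the activator of RNase L when they bind double-stranded RNA, were all among the 14 genes. OAS1 stood at 1.72, 2.49 and 2.47 FPKM in medium and at 4.82, 3.81 and 4.88 with TNF-α, which gave 0.99 ± 0.16 (log2 fold change ± SE, limma adjusted p = 0.00332). OAS3 stood at 23.7, 25.7 and 23.7 FPKM in medium and at 49.4, 50.2 and 43.2 with TNF-α (0.96 ± 0.10, limma adjusted p = 0.00016). OAS2 stood at 1.53, 1.20 and 1.44 FPKM in medium and at 2.53, 2.23 and 2.898 with TNF-α (0.83 ± 0.12, limma adjusted p = 0.0012). For each of the 3 genes all TNF-α libraries lay above all medium libraries. OASL, which lacks synthetase activity, did not pass, with a value of 0.02 ± 0.12 from a level of 36.7 ± 1.06 FPKM (SD, n = 3) in medium.

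Of the 4 ADP-ribosylation genes 3 rose with TNF-α, and of the 6 genes of the ISG15 system 1 did (TRIM25). PARP14, a mono-ADP-ribosyltransferase, stood at 5.68, 4.63 and 5.74 FPKM in medium and at 11.04, 8.88 and 9.64 with TNF-α (0.87 ± 0.12, limma adjusted p = 0.00121). TRIM25, the ubiquitin ligase that activates RIG-I, stood at 17.6, 17.8 and 15.8 FPKM in medium and at 27.7, 31.3 and 24.7 with TNF-α (0.70 ± 0.11, limma adjusted p = 0.00203). PARP12 and DTX3L rose as well, by 0.64 and 0.53 on the log2 scale, while the partner of DTX3L, PARP9, had a value of 0.18 that did not pass. The remaining genes past the test were MX1, CMPK2, ISG20, DDX60L, SP100, SP110 and HELZ2, with log2 fold changes of 0.48 to 0.69. The calls of DDX60L, CMPK2 and ISG20 depended on the libraries in the fit. DDX60L did not pass when any library of medium or TNF-α was left out (limma adjusted p between 0.0558 and 0.134). Its log2 fold change then stayed between 0.53 and 0.67. CMPK2 passed only without medium replicate 1 among these 6 libraries. ISG20 did not pass without medium replicate 1, TNF-α replicate 1 or TNF-α replicate 3. DDX60L also missed the test without 5-OH-TMT replicate 2 or knockdown replicate 1, and CMPK2 without the latter. Conversely ADAR, at an adjusted p of 0.0506, passed without TNF-α replicate 3 (0.00862) or knockdown replicate 2 (0.0412), PLSCR1 without knockdown replicate 2 (0.0359), EPSTI1 without medium replicate 1 (0.0373) and MX2 without 5-OH-TMT replicate 3 (0.0444), all by limma. With only the medium and TNF-α libraries in the fit, 9 genes passed, and DTX3L (0.0753) and SP100 (0.0677) were lost beside DDX60L, CMPK2 and ISG20. That fit called 392 of all genes in either direction, in place of 742.

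Several members had values near or below those in medium. ISG15, a ubiquitin-like modifier, stood at 316.8, 381.1 and 312.4 FPKM in medium and at 340.2, 317.5 and 404.6 with TNF-α, so that the groups overlapped. IFIT1, which binds viral RNA with an incomplete cap, stood at 18.7, 15.9 and 19.1 FPKM in medium and at 13.1, 13.9 and 15.7 with TNF-α, with no overlap and a log2 fold change of -0.33 ± 0.09 that did not pass (limma adjusted p = 0.075). It passed without medium replicate 2 (adjusted p = 0.0287) or without TNF-α replicate 3 (0.0494). IFITM1, IFITM2, IFITM3, BST2, IFIT2, HERC5, DDX60 and IFI44 also had values below 0, between -0.52 and -0.00, and none of them passed. None of the 9 membrane and mitochondrial proteins passed the test, although the value of LAMP3 was 0.87 ± 0.23 (limma adjusted p = 0.0597), and its adjusted p was 0.0141 without medium replicate 3.

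With 5-OH-TMT on top of TNF-α none of the 49 genes passed the adjusted test. This comparison asks what the compound did to the program in TNF-α-treated cells. In the limma fit 0 genes were higher and 0 lower, against 0.0332% and 0.00553% of all genes tested, and the 2-fold rule called 0 of them higher, against 0.686%. At an unadjusted p under 0.05, 13 genes were higher and 2 lower, against 9.6% and 10.5% of all genes. The libraries did not overlap for 14 genes that were higher with 5-OH-TMT and for 1 that was lower (HERC6), against 16.3% and 15.5% of all genes. The 49 log2 fold changes had a median of 0.16, against 0 for all genes tested, and single values ran from -0.32 for HERC5 to 0.54 for OAS1.

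The members with the lowest unadjusted p, named after their values were seen, were IFI35, TRIM21, HELZ2 and UBE2L6. IFI35, an interferon-induced leucine zipper protein, stood at 17.0, 14.8 and 17.2 FPKM with TNF-α and at 24.7, 21.2 and 24.7 with 5-OH-TMT (0.52 ± 0.11, limma adjusted p = 0.0853). TRIM21, the cytosolic antibody receptor, stood at 10.4, 9.86 and 9.02 FPKM with TNF-α and at 13.5, 12.4 and 12.4 with 5-OH-TMT (0.39 ± 0.09, limma adjusted p = 0.0918). The value of HELZ2 was 0.48 ± 0.11 (adjusted p = 0.0962) and that of UBE2L6, the conjugating enzyme for ISG15, 0.42 ± 0.11 (adjusted p = 0.106, both by limma). For each of the 4 genes all 5-OH-TMT libraries lay above all TNF-α libraries. The shared estimate of the spread includes the second knockdown library, and without it 6 of the 49 genes passed (IFI35, HELZ2, TRIM21, UBE2L6, IFITM1 and LGALS3BP, adjusted p between 0.0354 and 0.0445), beside 551 of all 18079 genes. Without medium replicate 2, IFI35 alone of the 49 genes passed (limma adjusted p = 0.0446), beside 85 of all genes. With only the TNF-α and 5-OH-TMT libraries in the fit, 7 members passed, beside 911 of all genes. These were OAS1, IFITM1, IFITM3, UBE2L6, TRIM21, IFI35 and LGALS3BP (limma adjusted p between 0.0414 and 0.0484).

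In the fit of all 4 groups none of the genes named for the other comparisons passed here. OAS1 stood at 6.86, 6.22 and 6.58 FPKM with 5-OH-TMT (0.54 ± 0.16 over TNF-α, limma adjusted p = 0.122). RSAD2 stood at 1.65, 1.39 and 1.40 FPKM with TNF-α and at 1.72, 1.37 and 1.51 with 5-OH-TMT, and ISG15 at 388.5, 345.0 and 358.3 with 5-OH-TMT. The 4 IFIT genes had values from -0.12 to -0.20, and none passed.

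**Figure D1:**
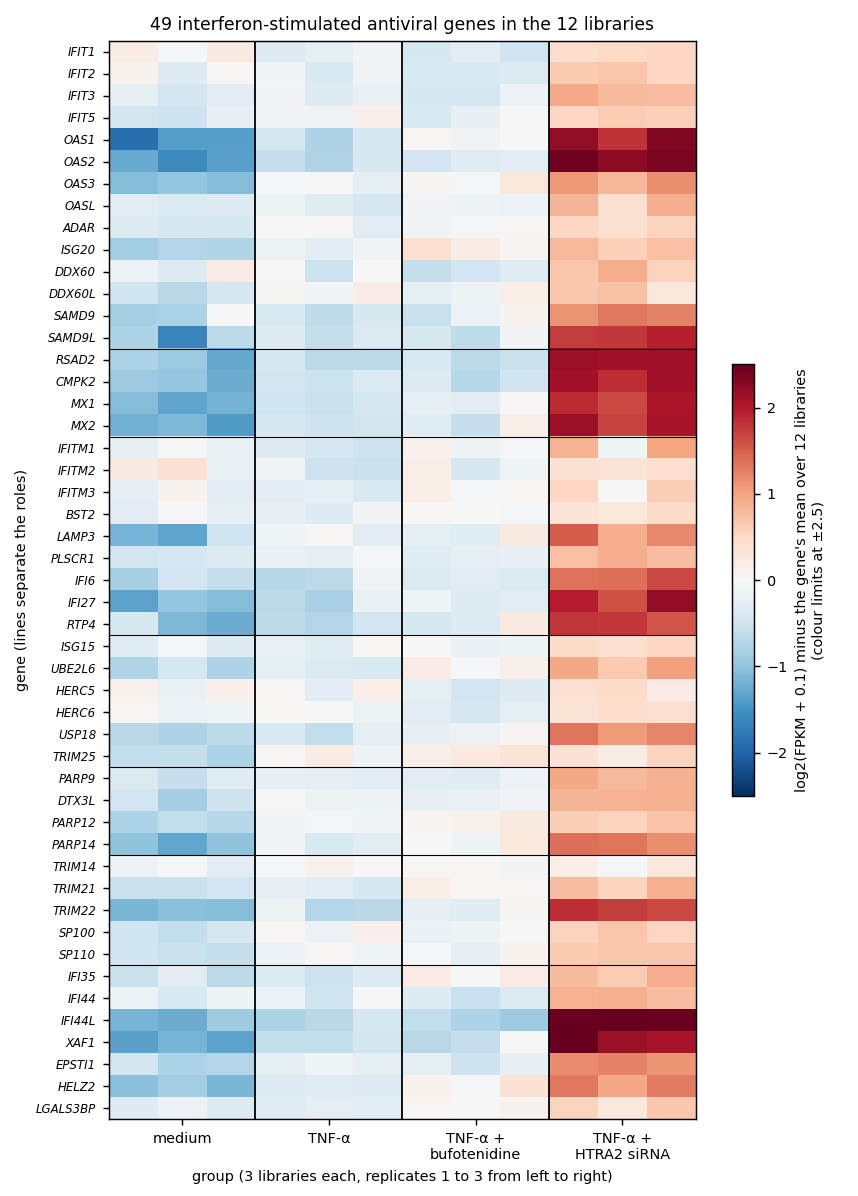
Heat map of log2(FPKM + 0.1) minus the mean over the 12 libraries for each of the 49 genes (rows, in the order of their roles) in each library (columns, 3 per group). The 3 knockdown columns are red for nearly all genes, the medium columns are mostly blue, and the second knockdown library is paler than its neighbours for IFITM1 and IFITM3.

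The knockdown of HTRA2 in TNF-α-treated cells went with a rise across almost the whole set. This comparison asks what was different when HTRA2 was reduced under the same stimulus. By limma 47 of the 49 genes were higher and 0 lower, against 9.35% and 8.08% of all genes tested, and by the 2-fold rule 27 were higher, against 3.08%. All 49 log2 fold changes were above 0, from 0.13 to 3.13, with a median of 1.04 against -0.00 for all genes. Only TRIM14 and TRIM25 did not pass. For 44 of the 49 genes every knockdown library lay above all 9 other libraries, against 8.72% of all genes, and the 5 exceptions were IFITM1, IFITM2, IFITM3, TRIM14 and TRIM25. XAF1 and IFI44L were in the test only through the knockdown libraries, since their means over the other 9 libraries (0.0641 and 0.0558 FPKM) lay under the filter of 0.1. With a filter on those 9 libraries, an alternative chosen after seeing the data, 45 of 47 genes passed and the median was 1.04. The rise was not limited to these genes. All 6 TNF targets were also above 0 in this comparison, with a median log2 fold change of 0.92. By limma 5 of the 6 were higher and 0 lower.

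**Figure D2:**
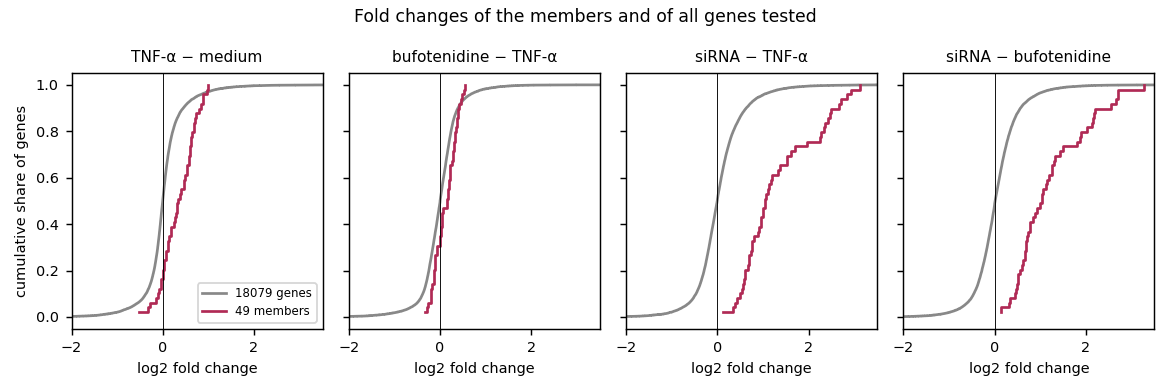
Cumulative share of genes against the log2 fold change in each of the 4 comparisons, for the 49 members and for all genes tested. The members lie to the right of all genes with TNF-α, where their median is 0.34, close to all genes with 5-OH-TMT (0.16), and far to the right in both comparisons of the knockdown (1.04 and 1.03).

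The nucleotide and GTPase effectors formed the role with the highest median log2 fold change, 2.45. RSAD2 (viperin), which makes a chain-terminating nucleotide, stood at 1.65, 1.39 and 1.40 FPKM with TNF-α and at 10.3, 10.1 and 10.2 in the knockdown, a 6.88-fold difference of means (log2 fold change 2.71 ± 0.13, limma adjusted p = 7.69e-07). Its neighbour CMPK2, a mitochondrial nucleotide kinase, stood at 1.13, 1.06 and 1.21 FPKM with TNF-α and at 7.11, 5.99 and 7.13 in the knockdown (2.47 ± 0.14, limma adjusted p = 1.86e-06). The dynamin-like GTPase MX1 stood at 2.56, 2.45 and 2.66 FPKM with TNF-α and at 13.6, 11.7 and 15.2 in the knockdown (2.35 ± 0.12, limma adjusted p = 7.69e-07). Its paralog MX2 rose from 0.332 to 2.24 FPKM on average. The 2 groups did not overlap for any of the 4 genes.

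Among the 14 cap-binding and double-stranded RNA effectors all passed, with a median of 0.96 and a wide spread. OAS2 stood at 2.53, 2.23 and 2.898 FPKM with TNF-α and at 21.1, 18.6 and 19.98 in the knockdown, a 7.78-fold difference (2.92 ± 0.12, limma adjusted p = 2.59e-07). OAS1 stood at 4.82, 3.81 and 4.88 FPKM with TNF-α and at 31.1, 23.2 and 33.3 in the knockdown, a 6.48-fold difference (2.66 ± 0.16, limma adjusted p = 3.68e-06). OAS3, between them on the chromosome, went from 49.4, 50.2 and 43.2 FPKM with TNF-α to 106.2, 89.1 and 113.0, which is 2.16-fold (1.11 ± 0.10). OAS3 was the most abundant of the 3 per length in every group. SAMD9L and SAMD9, neighbouring restriction factors of poxviruses, rose by 2.25 and 1.70 on the log2 scale.

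The 4 IFIT genes rose by 1.52-fold to 2.06-fold. IFIT1 stood at 13.1, 13.9 and 15.7 FPKM with TNF-α and at 22.4, 23.3 and 23.5 in the knockdown, a 1.62-fold difference (0.70 ± 0.09, limma adjusted p = 0.000352). IFIT3, which stabilises IFIT1 on RNA, stood at 29.1, 24.7 and 27.1 FPKM with TNF-α and at 59.4, 53.8 and 53.0 in the knockdown (1.04 ± 0.10, limma adjusted p = 3.49e-05). IFIT2 and IFIT5 rose by 0.80 and 0.60. The remaining members of this role were OASL (1.0), DDX60 (0.92), the exonuclease ISG20 (0.88), the RNA-editing enzyme ADAR (0.56) and DDX60L (0.49) on the log2 scale. The call of DDX60L (adjusted p = 0.037 by limma) was lost when any single library of TNF-α or the knockdown was left out except knockdown replicate 3, with adjusted p between 0.0529 and 0.131, and also without medium replicate 1 (0.0511) or 5-OH-TMT replicate 2 (0.0504).

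All 9 membrane and mitochondrial proteins rose, with a median of 1.0. IFI27, a mitochondrial and nuclear envelope protein, stood at 4.26, 3.88 and 6.04 FPKM with TNF-α and at 27.2, 20.9 and 32.3 in the knockdown, a 5.67-fold difference (2.48 ± 0.18, limma adjusted p = 1.13e-05). IFI6, an anti-apoptotic protein that guards the endoplasmic reticulum against flaviviruses, stood at 33.4, 34.4 and 51.6 FPKM with TNF-α and at 140.8, 142.4 and 173.5 in the knockdown (1.96 ± 0.15, limma adjusted p = 1.48e-05). RTP4 rose from 0.724 to 4.03 FPKM on average, or 5.56-fold. LAMP3, a lysosomal membrane protein, stood at 1.14, 1.26 and 0.991 FPKM with TNF-α and at 3.73, 2.41 and 2.97 in the knockdown (1.33 ± 0.23, limma adjusted p = 0.00206). The scramblase PLSCR1 rose 1.93-fold.

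Of the proteins that block virus entry and release, BST2 and IFITM3 changed by smaller factors from high levels. For IFITM1 and IFITM3 the second knockdown library mattered. BST2 (tetherin), which holds budding virions on the cell, stood at 151.4, 140.4 and 167.0 FPKM with TNF-α and at 218.9, 210.7 and 239.8 in the knockdown (0.55 ± 0.08, limma adjusted p = 0.00104). IFITM3, which blocks fusion in endosomes, stood at 350.2, 355.5 and 322.4 FPKM with TNF-α and at 601.5, 421.9 and 638.3 in the knockdown (0.67 ± 0.14, limma adjusted p = 0.00735). IFITM1, its relative at the plasma membrane, stood at 20.7, 19.2 and 18.0 FPKM with TNF-α and at 47.4, 23.9 and 51.2 in the knockdown (1.0 ± 0.22, limma adjusted p = 0.00762). For both genes the second knockdown library lay nearer to the TNF-α libraries than to the other knockdown libraries, and with only the 2 groups in the fit IFITM1 did not pass (adjusted p = 0.0684 by limma). IFITM2 counted 71 to 116 reads with TNF-α and 151 to 164 in the knockdown (0.75 ± 0.18, limma adjusted p = 0.0142), and did not pass without TNF-α replicate 2 (0.061) or replicate 3 (0.0585). IFITM1 and IFITM2 share 351 exon bases on the same strand and the family is near-identical in sequence, so their values are uncertain.

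In the ISG15 system, which attaches ISG15 to other proteins, 5 of 6 genes passed and the median was 0.51, the lowest of the roles. ISG15 itself stood at 340.2, 317.5 and 404.6 FPKM with TNF-α and at 533.5, 518.8 and 553.9 in the knockdown, a 1.51-fold difference (0.60 ± 0.10, limma adjusted p = 0.00171). USP18, which removes ISG15 and dampens the receptor, stood at 3.76, 3.16 and 4.18 FPKM with TNF-α and at 12.5, 10.4 and 11.5 in the knockdown (1.61 ± 0.11, limma adjusted p = 9.96e-06); reads of its near-identical copy USP41 may be split with it. UBE2L6 rose 2.32-fold. HERC6 rose by 0.42 on the log2 scale. The ligase HERC5 passed at 0.38 ± 0.12 (limma adjusted p = 0.0479), which was over 0.05 without TNF-α replicate 1 (0.0859) or 2 (0.181), without knockdown replicate 1 (0.133) or 2 (0.12), and also without medium replicate 1 (0.0602) or 3 (0.0531) or any 1 of the 5-OH-TMT libraries, which enter through the shared spread. TRIM25, already raised by TNF-α, stood at 27.7, 31.3 and 24.7 FPKM with TNF-α and at 34.9, 30.8 and 39.8 in the knockdown, overlapping groups that did not pass (0.33 ± 0.11, limma adjusted p = 0.0503). It passed without TNF-α replicate 2 (0.0331) or without knockdown replicate 2 (0.0172).

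The activating enzyme of ISG15, UBA7, is not among the 49 genes and rose as well. It stood at 0.306, 0.127 and 0.124 FPKM with TNF-α and at 1.78, 1.31 and 1.38 in the knockdown, an 8.01-fold difference (2.52 ± 0.25, limma adjusted p = 5.46e-05). All 3 knockdown libraries lay above the 9 others.

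The ADP-ribosylation genes all passed, with a median of 1.04. PARP14 stood at 11.04, 8.88 and 9.64 FPKM with TNF-α and at 30.4, 29.6 and 26.0 in the knockdown, a 2.91-fold difference (1.53 ± 0.12, limma adjusted p = 1.75e-05). PARP9 and DTX3L, which form a heterodimer and are transcribed from neighbouring, opposite genes, rose 2.20-fold and 1.94-fold. They share 217 exon bases, and the sources used here do not say if counting used the strand. PARP12 rose 1.61-fold.

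Of the 5 TRIM and nuclear body genes 4 passed. TRIM22, a restriction factor of retroviruses, rose from 0.848 to 4.37 FPKM on average, or 5.16-fold, and TRIM21 rose 2.07-fold. The nuclear body proteins SP110 and SP100 rose by 0.75 and 0.59 on the log2 scale. TRIM14, an adaptor of MAVS signalling, stood at 11.9, 13.3 and 12.1 FPKM with TNF-α and at 13.9, 12.03 and 15.1 in the knockdown, and did not pass (0.13 ± 0.09, limma adjusted p = 0.383). It shares 422 exon bases with NANS on the opposite strand, a gene with a mean of 10.3 FPKM over the libraries.

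The last role held the lowest starting levels. IFI44L counted 22, 22 and 40 reads with TNF-α and 523, 566 and 522 in the knockdown, an 18.7-fold difference of mean FPKM. XAF1, a pro-apoptotic antagonist of XIAP, counted 18, 15 and 23 reads with TNF-α and 361, 259 and 245 in the knockdown, or 15.0-fold. In medium XAF1 had only 1, 4 and 1 reads. Their fitted log2 fold changes, 3.13 ± 0.25 and 2.84 ± 0.29, are on the log2(FPKM + 0.1) scale and so understate these folds. IFI44, next to IFI44L on the chromosome, started from 26.9 ± 4.65 FPKM (SD, n = 3) and rose 2.08-fold. HELZ2, EPSTI1, IFI35 and the secreted glycoprotein LGALS3BP rose by 1.53, 1.38, 1.18 and 0.76 on the log2 scale.

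**Figure D3:**
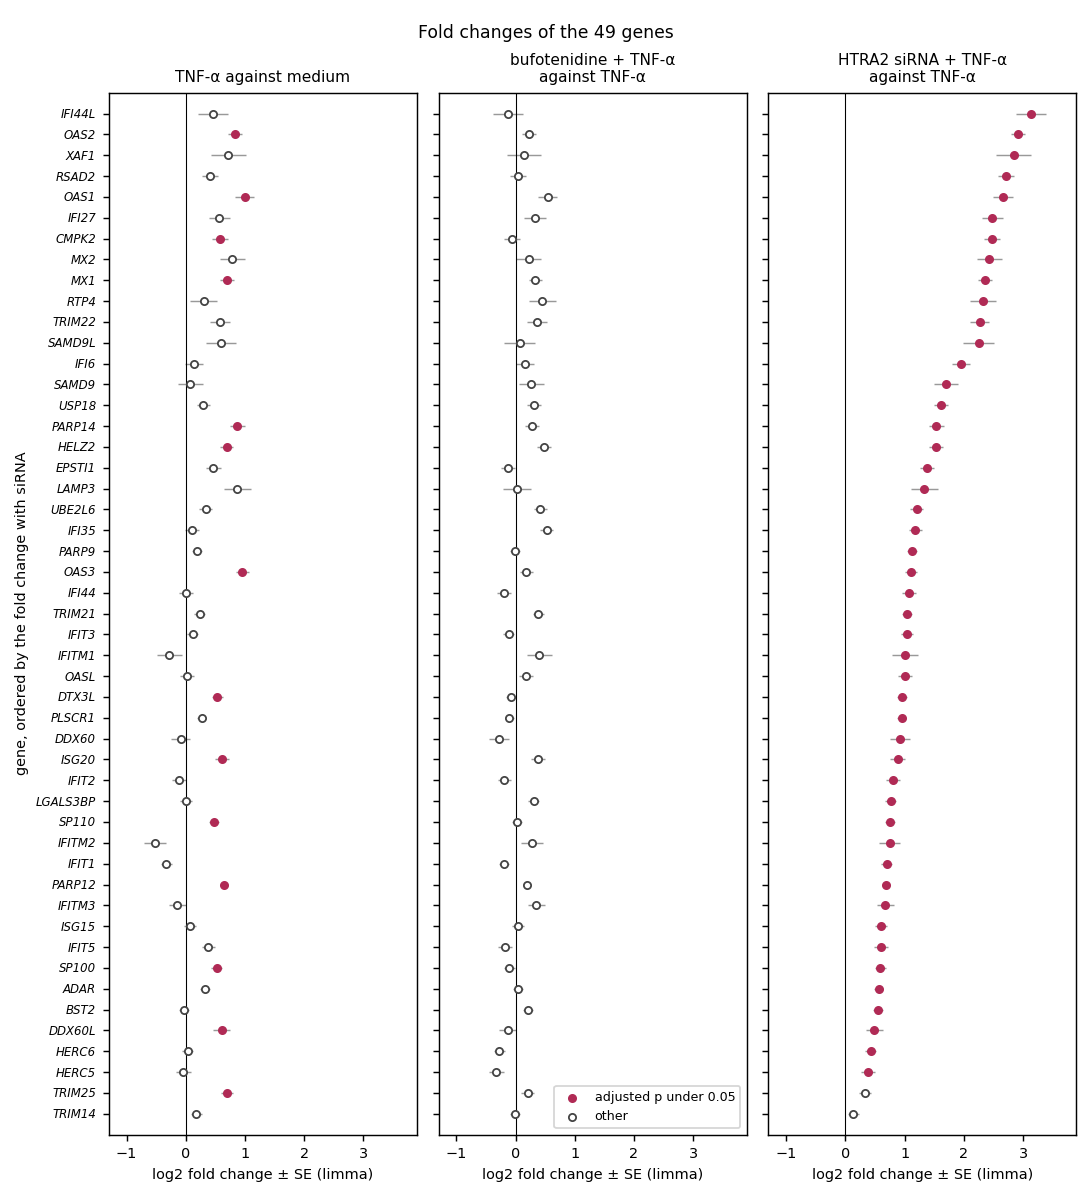
Log2 fold change ± SE (limma) of each of the 49 genes with TNF-α, with 5-OH-TMT (bufotenidine in the plot) and with the HTRA2 siRNA, ordered by the last. Filled points have an adjusted p under 0.05: 14 genes with TNF-α, 0 with 5-OH-TMT and 47 with the siRNA.

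Set against the 5-OH-TMT libraries in place of the TNF-α libraries, the knockdown showed much the same values, and this comparison shares the knockdown libraries with the one above. By limma 44 of the 49 genes were higher and 0 lower, against 7.85% and 7.43% of all genes, 25 were higher by the 2-fold rule, against 2.18%, and the median was 1.03 against 0.01 for all genes. The largest values among genes with a mean of at least 1 FPKM were those of OAS2 (2.69 ± 0.12), RSAD2 (2.66 ± 0.13), CMPK2 (2.54 ± 0.14), IFI27 (2.15 ± 0.18) and OAS1 (2.12 ± 0.16). The 5 genes that did not pass were IFITM1, IFITM2, IFITM3, TRIM14 and TRIM25. IFITM1 stood at 27.6, 23.5 and 25.4 FPKM with 5-OH-TMT, so that the second knockdown library at 23.9 lay inside that group (0.60 ± 0.22, limma adjusted p = 0.0828). Without that library the log2 fold change was 0.95 for IFITM1 (adjusted p = 0.000237) and 0.50 for IFITM3 (0.0155). BST2 passed narrowly at 0.33 ± 0.08 (adjusted p = 0.0218 by limma), and its adjusted p was between 0.0522 and 0.0705 when any of the libraries of the 2 groups except knockdown replicate 2 was left out. ISG20 did not pass without 5-OH-TMT replicate 2 or 3 or knockdown replicate 1 (0.0698 to 0.0706), nor did DDX60L without 5-OH-TMT replicate 1 or 2 or knockdown replicate 1 or 2 (0.0570 to 0.0668).

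Among the 49 genes the fold changes with the knockdown were on the whole larger where the starting level was lower. Across the 49 genes, which are not independent replicates, the mean log2(FPKM + 0.1) in medium and the log2 fold change of the knockdown over TNF-α had a Spearman rho of -0.544. The median was 2.33 (0.88 to 3.13) for the 9 genes under 1 FPKM in medium, 1.12 for the 19 genes at 1 to 10 FPKM, 1.0 for the 17 genes at 10 to 100 FPKM, and 0.64 (0.55 to 0.76) for the 4 genes at 100 FPKM or more. The last 4 were ISG15, IFITM3, BST2 and LGALS3BP. The lower levels are also those read with the least depth, although 9 of 49 genes stood under 1 FPKM in medium and only XAF1 and IFI44L under 0.1. XAF1 and IFI44L, both among the 9 genes, passed the filter only through the knockdown libraries. For both a large rise from a low level was therefore built in. The relation was not computed without them or over all genes tested.

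**Figure D4:**
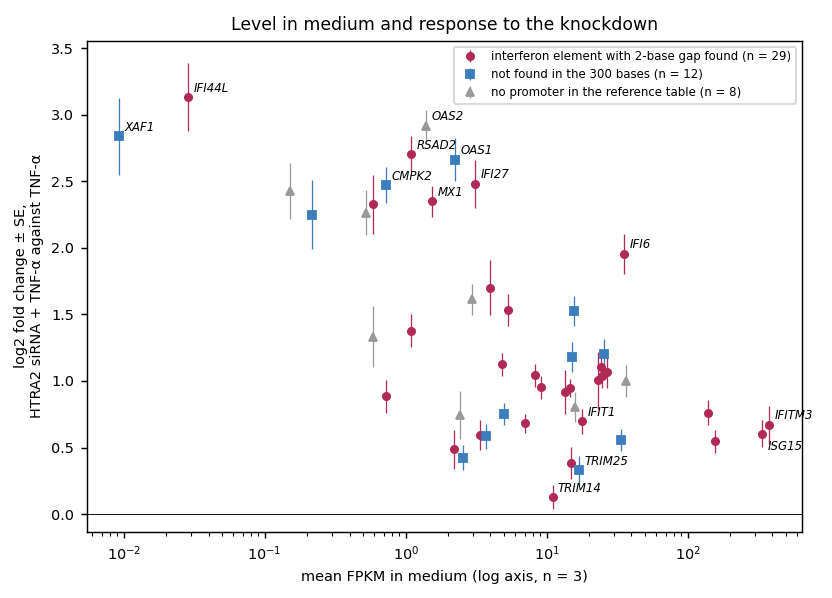
Log2 fold change ± SE of the knockdown over TNF-α against the mean FPKM in medium (log axis) for the 49 genes, with symbols for the ISRE with a 2-base gap: found (29 genes), not found in the 300 bases (12) and no promoter listed (8). The values are on the whole lower to the right, with IFI44L at 3.13 among the lowest levels and ISG15 at 0.60 among the highest, and the 4 genes at 100 FPKM or more all have the element. IFI44L and XAF1 passed the filter only through the knockdown libraries.

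Members with and without the ISRE in the promoter both responded. In the knockdown over TNF-α the median was 1.0 for the 29 genes with GAAANNGAAA and 1.19 for the 12 without it, and 28 and 11 of them passed the test. With TNF-α over medium, the medians were 0.24 and 0.56, and 7 of 29 and 6 of 12 genes passed. The 12 genes include OAS1, CMPK2, TRIM25, SP110, IFI35 and XAF1, which have the form with a 1-base gap. Split by that form, 9 of 17 genes with it and 4 of 24 without it passed with TNF-α over medium. In the knockdown over TNF-α these were 16 of 17 and 23 of 24. Among the genes that are not members, 381 tested genes had the element in a listed promoter and 10123 did not, and 19.2% against 10.6% of them were higher in the knockdown than with TNF-α, while 7.61% against 10.3% were lower. With TNF-α over medium, 9.45% of the genes that are not members were higher with the ISRE and 3.59% without it. For the NF-κB site the shares higher with TNF-α over medium were 13.1% of 305 genes that are not members and 3.52% of 10199. In the knockdown over TNF-α they were 18.7% and 10.7%, so neither element went with only 1 of these comparisons. These shares are descriptions, and no difference between them was tested.

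Many of these genes lie beside each other. In the annotation of the deposited table (GENCODE 29, GRCh38), the 49 genes lay on 17 chromosomes, and 24 of them fell into 10 clusters with gaps of at most 100 kb. The IFIT cluster (IFIT2, IFIT3, IFIT1 and IFIT5, chr10:89283694-89421001) had log2 fold changes of 0.60 to 1.04 with the knockdown over TNF-α. The OAS cluster (OAS1, OAS3 and OAS2, chr12:112906777-113011723) ranged from 1.11 to 2.92, with the gene in the middle lowest. IFI44L and IFI44 (chr1:78619922-78664078) had 3.13 and 1.07, whereas MX2 and MX1 (chr21:41361943-41459214) had 2.43 and 2.35 and CMPK2 and RSAD2 (chr2:6840570-6898239) 2.47 and 2.71. CMPK2 and RSAD2 overlap by 14 exon bases on opposite strands.

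TNF-α over medium and the knockdown over 5-OH-TMT share no library, so their values can be set beside each other for the members. Their log2 fold changes had a Spearman rho of 0.42 and a Pearson r of 0.44 across the 49 genes, against 0.156 and 0.138 across all 18079 genes, as a description across genes. The 14 genes that TNF-α raised had a median of 0.98 in the knockdown over 5-OH-TMT (0.13 to 2.69), and the 35 others one of 1.05 (0.14 to 3.27). The lowest and highest of the first group were TRIM25 and OAS2. In all 49 genes the knockdown had the highest of the 4 group means, and in 39 the medium had the lowest. How many of all genes tested had these orders was not counted.

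The list of the pathway above these genes held 40 genes of ligands, receptors, kinases, transcription factors, sensors and inhibitors, of which 34 passed the filter. With TNF-α over medium 11 of the 34 were higher and 0 lower, with 5-OH-TMT over TNF-α 0 and 0, with the knockdown over TNF-α 21 and 0, and with the knockdown over 5-OH-TMT 15 and 1 (MAVS, the adaptor of the RNA sensors). The percentages of all genes called are those given above for the same comparisons. Interferon ligands were at or near 0: IFNA1 and IFNG had 0 reads in every library, which allows up to 3 reads in each, and IFNB1 had 2, 2 and 1 reads in 1 TNF-α library and in 2 of the 5-OH-TMT libraries and 0 in the 9 others. IFNL1, a type III interferon, counted 0, 2 and 8 reads in medium, 8, 12 and 26 with TNF-α, 16, 13 and 20 with 5-OH-TMT, and 75, 48 and 47 in the knockdown. Its level was 3.61-fold higher in the knockdown than with TNF-α (log2 fold change 1.75 ± 0.45, limma adjusted p = 0.0197), and the groups did not overlap. IFNL3 counted 0, 0 and 2 reads with TNF-α and 14, 8 and 17 in the knockdown, and IFNL2 0, 0 and 0 against 22, 10 and 2. IFNL2 and IFNL3 are near-identical, so reads may be split between them, and at these few reads their fitted values are not given as folds.

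IFNLR1, 1 chain of the receptor of interferon-λ, did not pass in any of the 4 comparisons. It stood at 4.52 ± 0.369 FPKM (SD, n = 3) with TNF-α and at 4.34 ± 0.623 in the knockdown. IL10RB, also listed among the receptors, was scarce, at 0.167 ± 0.0107 FPKM with TNF-α and 0.249 ± 0.0810 in the knockdown (SD, n = 3). The interferon-γ receptor subunits IFNGR1 and IFNGR2 passed with TNF-α (0.69 and 0.95 on the log2 scale) and again in the knockdown over TNF-α (0.76 and 0.77). IFNAR1, a subunit of the type I receptor, passed with TNF-α (0.42), and JAK1 passed in the knockdown over TNF-α (0.42).

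Transcription factors of the response rose with the members. STAT2 stood at 17.7, 18.2 and 18.7 FPKM with TNF-α and at 32.9, 28.95 and 34.1 in the knockdown (0.81 ± 0.07, limma adjusted p = 1.79e-05). IRF9, its DNA-binding partner, had lower values, at 0.251, 0.127 and 0.290 FPKM with TNF-α and at 0.760, 0.585 and 0.622 in the knockdown (1.26 ± 0.25, limma adjusted p = 0.00502). For IRF9 too, exon overlap with other genes was not looked at.

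IRF7, which drives further interferon genes, stood at 12.1, 12.4 and 14.4 FPKM with TNF-α and at 32.5, 24.8 and 35.0 in the knockdown (1.23 ± 0.13, limma adjusted p = 6.73e-05). IRF1, a factor that both TNF-α and interferons induce, stood at 6.95, 7.22 and 6.38 FPKM in medium and at 9.97, 10.6 and 9.86 with TNF-α (0.56 ± 0.07, limma adjusted p = 0.000616), and it was at 16.2, 14.5 and 16.6 in the knockdown (0.63 ± 0.07, limma adjusted p = 0.000146). With 5-OH-TMT it stood at 12.4, 12.5 and 12.8, above all TNF-α libraries, and did not pass (0.31 ± 0.07, limma adjusted p = 0.0946). With only the TNF-α and 5-OH-TMT libraries in the fit IRF1 passed (limma adjusted p = 0.0414). IRF2 also passed in the knockdown over TNF-α (0.58 on the log2 scale), and IRF3 did not (0.24). Without 5-OH-TMT replicate 1, IRF1 did not pass in the knockdown over 5-OH-TMT (0.0511 against 0.0126 with it).

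**Figure D5:**
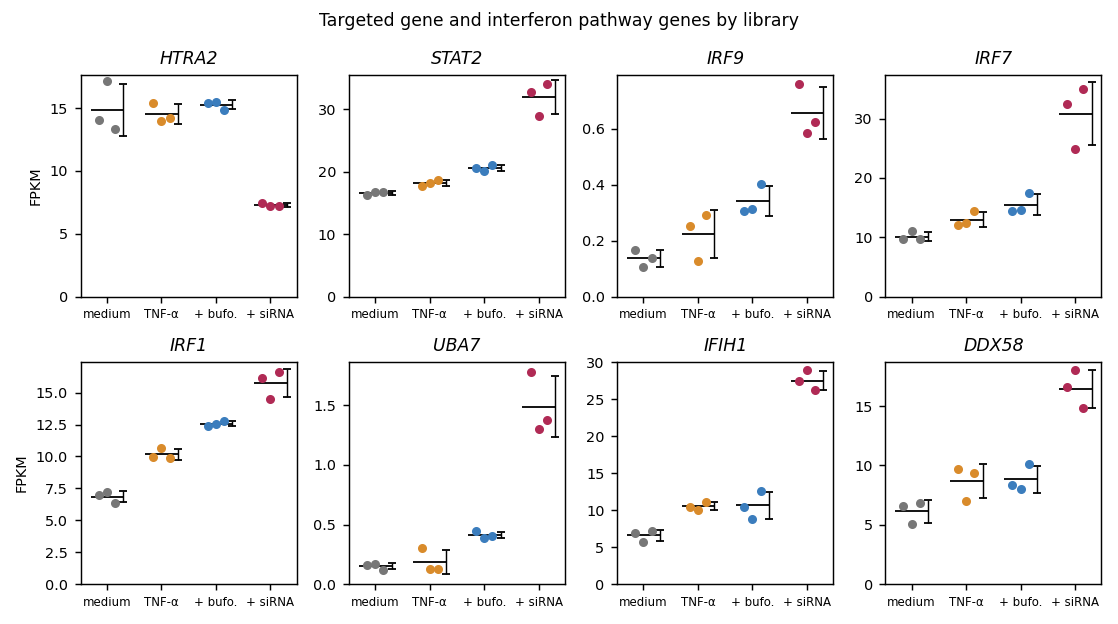
FPKM of the targeted gene HTRA2 and of 7 interferon pathway genes in each library (points), with the mean (line) and SD (bar, n = 3) of each group. HTRA2 is near 7 in the 3 knockdown libraries and above 13 in all others, and each of the other genes has its 3 highest points in the knockdown.

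The sensors of RNA moved in the same direction. IFIH1 (MDA5) rose from 10.5 ± 0.526 FPKM with TNF-α to 27.6 ± 1.32 in the knockdown (SD, n = 3), or 2.61-fold, TLR3 2.64-fold, DHX58 2.13-fold and DDX58 (RIG-I) 1.90-fold. The kinase EIF2AK2 (PKR), which shuts down translation on double-stranded RNA, rose 1.51-fold. The DNA sensor CGAS and the adaptors MAVS and TMEM173 (STING) did not pass in that comparison, with values of -0.32, -0.16 and 0.24. Among the inhibitors, SOCS1 passed in the knockdown over TNF-α (0.97 ± 0.15, limma adjusted p = 0.00113), and SOCS3 and PIAS1 did not.

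Markers of other cell types were measured beside these genes. The 7 leukocyte markers summed to 0.102 to 0.287 FPKM with TNF-α and to 0.668 to 1.09 in the knockdown, with CD3E at 0 reads in every library, PTPRC at up to 4 reads and the plasmacytoid dendritic cell marker CLEC4C at up to 2. The values came mainly from CD14 and IL3RA. The 2 endothelial markers summed to at most 0.278 FPKM in any library. The 5 fibroblast markers summed to 5.09 to 6.21 FPKM with TNF-α and to 4.18 to 4.38 in the knockdown, where VIM was lower and COL1A1 higher. The 4 stratified markers summed to 176 to 192 FPKM with TNF-α and to 211 to 260.4 in the knockdown. Their part in the results was not tested, and in bulk RNA more cells expressing a gene and more RNA per cell cannot be told apart.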

How the data were processed

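Per the labels, mRNA purified on poly-T beads was sequenced, and the submitters' processing notes name CASAVA 1.8, HISAT2 2.0.4, HTSeq 0.9.1 and the build hg38. The values deposited by the authors are FPKM, in 1 table with a row per gene. Strandedness is not given in the sources used here. The table's coordinates equal those of GENCODE 29 for 99.98% of genes. Multiplying FPKM by gene length gave whole reads (within 0.1) for 100% of values, and 63.1% of recovered values of 1 to 10 were even. Counting error per library is set by these reads, with 3 reads as the floor (0.0805 to 0.0962 FPKM for a gene of 1 kb). Within groups, chi-squared per degree of freedom was 7.35 to 45.4.

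With limma 3.58.1 in R 4.3.3, the 4 group means were fitted on the scale log2(FPKM + 0.1) for 18079 genes (mean FPKM 0.1 or higher), with eBayes and trend (8 residual degrees of freedom), and tested on simulated data. Fold changes on this scale understate those of low genes. Genes named in full were the 5 with the largest change per comparison past the test without overlap and with a mean of at least 1, and a list of key members. One pathway gene is not reported here. The members, lists and tests were chosen with earlier results of these data known. Alternatives were other pseudocounts, filters, scalings, variance models, voom on the reads, the replicate number and each library left out.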

Additional observations from a re-analysis of the deposited data

How the results depend on the processing

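Over 23 or 24 alternatives per count or median, the direction of every median was kept. Among the genes selected by the naming rule, with 16 or 17 alternatives each, no call reversed. Fewer calls came from the rule of 2-fold, on the log2(FPKM + 0.1) scale, with an unadjusted p of at most 0.05: 0 members higher with TNF-α, 27 in the knockdown over TNF-α and 25 over 5-OH-TMT. With only the groups compared in the fit, 9 members were higher with TNF-α and 7 with 5-OH-TMT. Of all genes, that fit called 392 with TNF-α, against 742 in the main fit, and 911 with 5-OH-TMT, against 7. With 5-OH-TMT, voom on the reads gave 2 members beside 236 of all genes. A filter on a mean of at least 1 FPKM gave 1 member there, beside 127 of 11185 genes. The counts of members thus moved together with those of all genes. With a pseudocount of 1 the median with TNF-α was 0.21. Leaving out 1 library at a time gave 11 to 16 members higher and 0 to 1 lower with TNF-α, 0 to 6 higher with 5-OH-TMT (1 without medium replicate 2, 6 without knockdown replicate 2), 45 to 47 in the knockdown over TNF-α and 41 to 45 over 5-OH-TMT. The medians then ranged from 0.31 to 0.40, 0.06 to 0.20, 1.0 to 1.16 (the highest without knockdown replicate 2) and 0.98 to 1.06. The cause of these shifts was not tested. The replicate numbers did not pair the libraries (correlations of same-numbered deviations from -0.104 to 0.0382); with the replicate block 13, 0, 46 and 44 members were higher in the 4 comparisons, 2660 in place of 3152 of all genes were called in the knockdown over TNF-α, and 4 of the 12 libraries correlated best with their own number. With the filter on the 9 libraries without knockdown, chosen after seeing the data, the counts were 14, 0, 45 and 42 of 47. Depth limits XAF1, IFI44L and the interferon ligands.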
